A study of Mus musculus with 23 samples.

Results

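Branched-chain amino acid breakdown was followed in mouse brown adipose tissue (BAT) through the transcripts of 9 genes, Bcat2, Bckdha, Bckdhb, Dbt, Bckdk, Ppm1k, Ivd, Mccc1 and Acad8. They were taken by symbol from a table of 14651 genes, and all 9 were measured. Of these, 2 rose and 4 fell after 6 h at 4°C in control mice, 1 rose and 3 fell in mice whose BAT lacks the mitochondrial calcium uniporter, and none was called by genotype. Cold called 46.0% of all genes in the former and 43.3% in the latter. Dbt rose, and Bckdk, Ivd and Acad8 fell, in both genotypes. Bckdhb had the largest fold change of the 9 and also the widest spread between mice.

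Leucine, isoleucine and valine are broken down in mitochondria along a path whose opening steps are shared. BCAT2 moves the amino group off each of the 3 amino acids, and the resulting keto acids are oxidized by a dehydrogenase complex that commits the carbon to breakdown. BCKDHA and BCKDHB form the decarboxylase of this complex, and DBT is its core, which passes the acyl group to coenzyme A. BCKDK shuts the complex off by phosphorylating BCKDHA, and PPM1K, a phosphatase, takes the phosphate off again. Beyond the complex the path splits. IVD and the carboxylase that contains MCCC1 work on the carbon of leucine, and ACAD8 on that of valine. Brown fat takes up branched-chain amino acids and uses them as a fuel during thermogenesis.

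The study asked how BAT responds to acute cold and whether that response needs MCU, the pore of the uniporter. It sequenced RNA from the BAT of 23 male C57BL/6 mice aged 8–12 weeks. Control mice (Mcu[fl/fl]) were sampled at RT (n = 6) and at 4°C (n = 5). BAT-Mcu-KO mice (Mcu[fl/fl];Ucp1-Cre) were sampled at RT (n = 6) and at 4°C (n = 6). Both genotypes carried loxP sites around exon 2 of Mcu, and the Ucp1 promoter drove the Cre, so that the deletion reaches cells that have expressed Ucp1 and spares the others in the tissue. Mice at 4°C were caged singly, with water and no food, so cold, single housing and the removal of food cannot be told apart here. Whether RT mice kept their food is not given in the sources used here. Each library came from a separate mouse.

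Values are normalized counts, reads divided by a size factor for each library, and libraries held 7129271 to 21006347 reads. The 9 genes had between 348 and 7832 reads in every library. Mcu was at 70.8 to 136 normalized counts in control mice and at 15.2 to 42.4 in BAT-Mcu-KO animals, with no overlap. Ucp1 was at 50590.2 to 70028 in RT mice and at 140888 to 198043 in mice at 4°C. All 12 brown adipocyte markers were measured, and their summed level was 182975 to 253405 at RT and 306451 to 372314 at 4°C. They include Ucp1, Ppargc1a and Dio2, which the paper reports as raised by cold, so this sum cannot be read as a share of cells. The sum of 5 endothelial markers was also higher at 4°C (4539 to 7717) than at RT (2967 to 4423), without overlap. All 12 skeletal muscle markers were detected, with a sum from 286 to 64665. This sum was over 40000 in 5 libraries, replicates 2 and 5 of control at 4°C and replicates 3, 4 and 6 of BAT-Mcu-KO at RT. The sum of 4 white adipocyte markers was lower at 4°C (326 to 564) than at RT (665 to 1320) in control mice, without overlap, as levels of Bckdk, Ivd and Acad8 were. In BAT-Mcu-KO animals it was 435 to 734 at 4°C and 626 to 1864 at RT, with overlap. Macrophage, fibroblast, nerve and erythroid markers overlapped between the temperatures in both genotypes, and 3 of the 4 lymphocyte markers were not in the table. The part of these other cell types in the results was not tested, and in bulk tissue fewer cells of a type and less RNA per cell cannot be told apart.

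The genes lie on 5 chromosomes of the mouse genome (GRCm38, GENCODE M21). The transaminase gene Bcat2 is at chromosome 7, 45570153 to 45589711, on the plus strand. Bckdha (25629946 to 25658981, minus) and Bckdk (127904082 to 127910221, plus) lie on the same chromosome. Bckdhb is the longest, with 15 exon blocks from 83925145 to 84124240 on chromosome 9, plus strand, and Acad8 is on chromosome 9 as well (26974135 to 26999566, minus). Dbt is at chromosome 3, 116513070 to 116549981, plus, and Mccc1 at chromosome 3, 35959312 to 36000678, minus. Ppm1k is at chromosome 6, 57506502 to 57535468, minus, and Ivd at chromosome 2, 118861954 to 118882909, plus. Exonic reads were counted irrespective of strand. Of the 1899 exonic bases of Bckdha, 1171 are shared with B3gnt8 on the other strand, which had a mean of 11.3 normalized counts. Of those of Bcat2, 622 of 3900 are shared with the antisense 0610005C13Rik (7.68 normalized counts). Mccc1, with 10952 exonic bases, shares 321 with the pseudogene B230207O21Rik, 198 with the antisense Mccc1os (19.9 normalized counts) and 94 with the antisense Gm15952, all on the other strand. Reads in these stretches cannot be given to a gene by strand. Dbt, Bckdhb and Ppm1k overlap other annotated genes only outside shared exons, and Bckdk, Ivd and Acad8 overlap none.

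RefSeq (GRCm38.p6) gave a start for 8 of the 9 genes, all but Dbt. The bases upstream of 4 of them are shown, those of Bckdhb, whose change by cold was the largest, and of the 3 genes that fell in both genotypes. Each is read 5′ to 3′ on the strand of the gene and stops before the first transcribed base of either annotation. Capitals mark the GC box GGGCGG, or its reverse complement, which was the only one of 6 searched motifs in them.
Bckdhb, chr9:83924887-83925136, plus: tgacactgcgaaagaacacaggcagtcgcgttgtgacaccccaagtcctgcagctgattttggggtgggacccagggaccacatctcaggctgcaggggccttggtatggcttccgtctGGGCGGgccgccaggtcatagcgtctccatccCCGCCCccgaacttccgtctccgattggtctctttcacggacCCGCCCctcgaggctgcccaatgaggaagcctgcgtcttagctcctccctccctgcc
Bckdk, chr7:127903823-127904072, plus: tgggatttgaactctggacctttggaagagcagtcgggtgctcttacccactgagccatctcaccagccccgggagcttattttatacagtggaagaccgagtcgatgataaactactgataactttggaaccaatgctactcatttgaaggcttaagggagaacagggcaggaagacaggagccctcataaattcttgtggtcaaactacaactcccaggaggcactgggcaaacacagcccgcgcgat
Ivd, chr2:118861744-118861953, plus: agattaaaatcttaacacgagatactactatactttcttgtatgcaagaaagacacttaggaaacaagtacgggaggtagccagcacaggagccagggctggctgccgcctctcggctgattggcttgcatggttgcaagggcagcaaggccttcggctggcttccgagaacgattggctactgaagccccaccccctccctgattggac
Acad8, chr9:26999567-26999799, minus: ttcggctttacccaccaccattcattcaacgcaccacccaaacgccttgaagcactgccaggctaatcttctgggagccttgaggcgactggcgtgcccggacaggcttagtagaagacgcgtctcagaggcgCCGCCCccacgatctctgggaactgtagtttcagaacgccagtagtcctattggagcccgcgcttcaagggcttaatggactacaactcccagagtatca

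The 6 motifs were searched on both strands in the 250 bases before each RefSeq start. They were the cAMP response element TGACGTCA and its core TGACG, which the whole element contains, the ATF4 element TGATGNAAN, the ERR element TCAAGGTCA, the E-box CACGTG and the GC box. The upstream stretch of Bckdhb shown above held 3 GC boxes. Bckdhb and Bcat2 each have a second RefSeq start further downstream, and the bases before these held none of the 6. That of Acad8 held 3, of which 2 overlap by 1 base next to the start and lie beyond the stretch shown. Ppm1k held 2 and Mccc1 held 1. Ppm1k also held the TGACG core, and no other motif was found. Among all 32851 promoters the GC box was in 32.7%, the TGACG core in 17.8%, the whole element in 1.55%, the ATF4 element in 3.44%, the E-box in 6.02% and the ERR element in 0.387%. The promoters of Bcat2, Bckdha, Bckdk and Ivd held none of the 6. Of the 250 bases searched, 220 for Bckdha, 40 for Ivd and 17 for Acad8 lie inside the gene as GENCODE annotates it. Those 17 bases hold 2 of the 3 GC boxes of Acad8.

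Levels were compared between genes as normalized counts per kilobase of exon. The length is that of all annotated exons of a gene merged, from 1805 bases for Bckdhb to 10952 for Mccc1. It can exceed that of the transcript in use, and the order of the genes depends on it. In control mice at RT Bckdha stood highest, at 2938 ± 240 per kilobase (SD, n = 6), although most of its exonic bases are shared as given above. Bckdk (662 ± 84.7) and Ivd (653 ± 36.1) followed, then Dbt (573 ± 57.0), Bckdhb (442 ± 151), Acad8 (306 ± 50.4), Bcat2 (257 ± 42.3) and Mccc1 (219 ± 10.4). Ppm1k was lowest, at 90.3 ± 9.12 per kilobase. From Bckdk to Mccc1, each gene's mice overlapped those of its neighbours in this order. Bckdha stood above Bckdk and Ppm1k below Mccc1 without overlap. The transcript of the kinase thus exceeded that of the phosphatase in every control mouse at RT on this scale.

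Changes are log2 fold changes of log2(normalized count + 1) from limma across all 23 libraries, with Benjamini-Hochberg adjustment over 14651 genes and a call at an adjusted p under 0.05. Cold in control mice called 6 of the 9 genes, where 46.0% of all genes were called. The 2 that rose compare with 22.3% of all genes, and the 4 that fell with 23.7%. In BAT-Mcu-KO animals cold called 4 of 9, where 43.3% of all genes were called. The 1 that rose compares with 21.4% and the 3 that fell with 21.9%. The share that rose in control mice and the share called in BAT-Mcu-KO animals lie near these backgrounds. The share called in control mice, and the shares that fell in both genotypes, were above theirs. The share that rose in BAT-Mcu-KO animals was below. Whether these 9 genes differ as a set from all genes was not tested. Scaling each library to its 75th percentile moved the share of calls that were higher from 48.5% to 38.2% in control mice and shifted the median of all genes there by −0.10. Dbt and Bckdhb were called higher and Acad8, Bckdk and Ivd lower in control mice under that scaling too. The median log2 fold change of the 9 genes was −0.18 in control mice and −0.14 in BAT-Mcu-KO animals, and that of all genes −0.02 in each. Mice at RT and at 4°C did not overlap for 4 of the 9 genes in control (25.2% of all genes) and for 3 of 9 in BAT-Mcu-KO animals (24.2%).

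**Figure D1:**
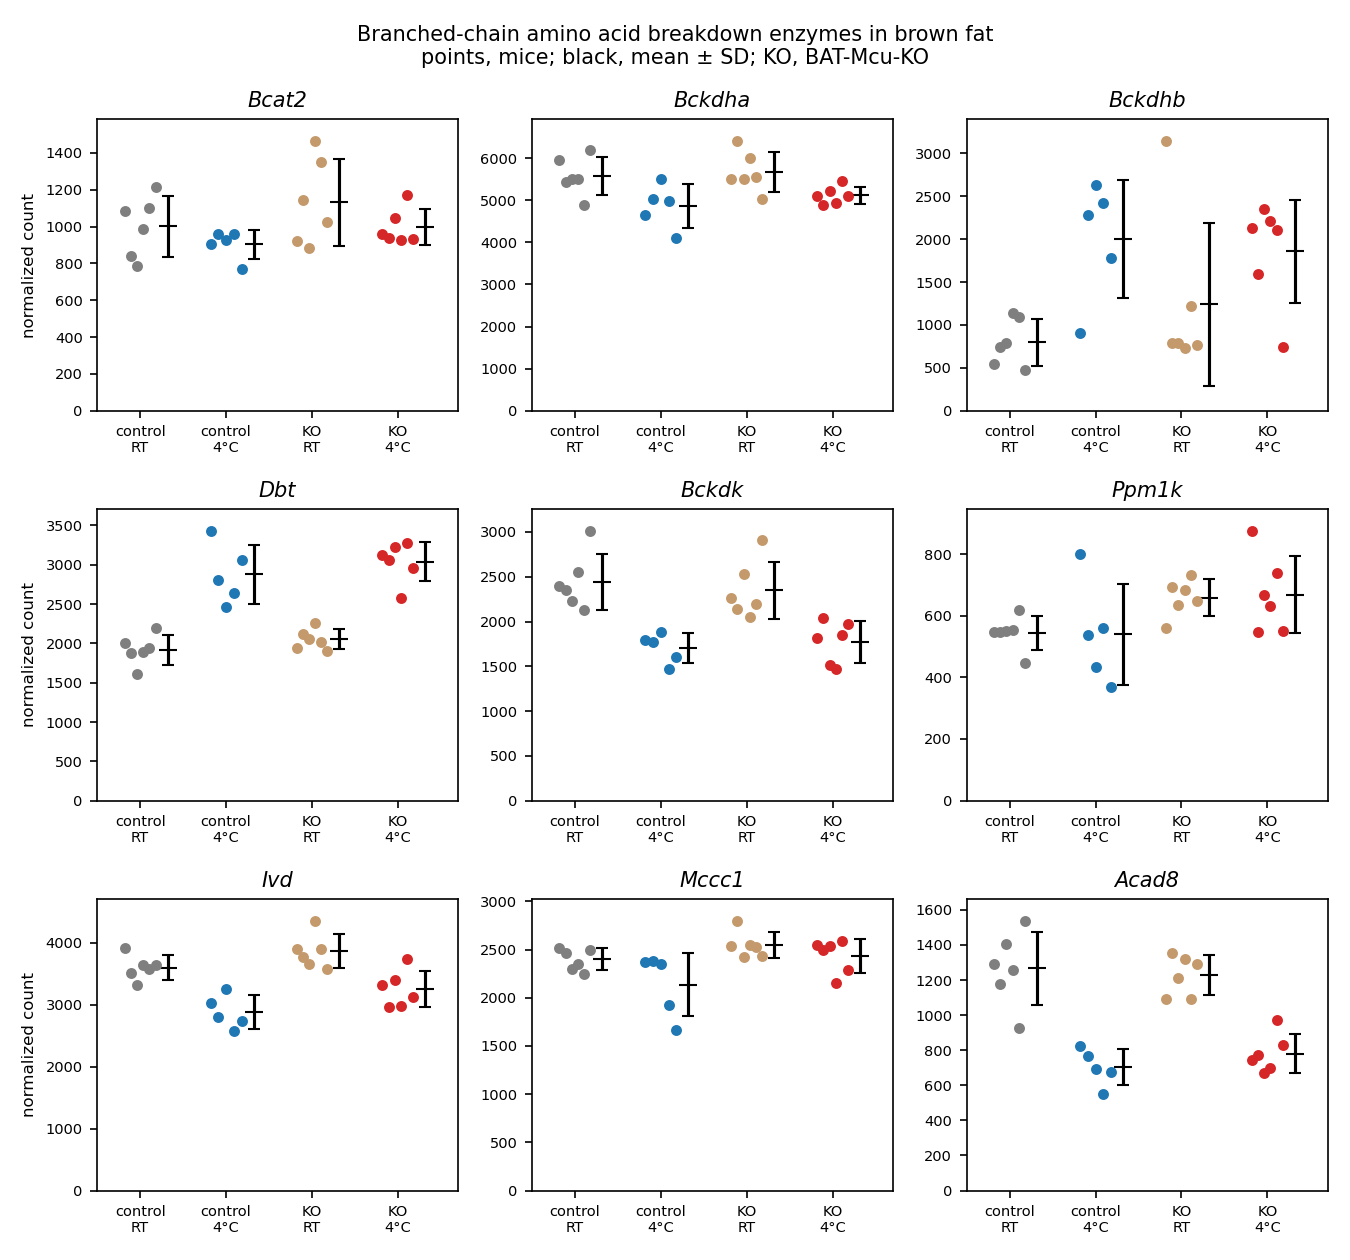
Normalized counts (vertical axes, each starting at 0) of the 9 genes in each mouse of the 4 groups (horizontal axes), with the mean and SD in black. Dbt is higher and Bckdk and Acad8 are lower in every mouse at 4°C than in any RT mouse of the same genotype, and 1 BAT-Mcu-KO mouse at RT stands far above the others for Bckdhb, at 3145.

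Bcat2, the mitochondrial transaminase, was not called by cold. Control mice at RT had from 785 to 1217 normalized counts with a median of 1035, and those at 4°C had 906, 959, 927, 961 and 769.8. The corresponding BAT-Mcu-KO animals ran from 881 to 1465 (median 1084) and from 929 to 1170.2 (median 948). The groups overlapped throughout, and the mice at 4°C were packed more closely than those at RT. Cold gave a log2 fold change of −0.13 (95% interval −0.39 to 0.12, adjusted p = 0.399 by limma) in control mice and −0.16 (−0.41 to 0.08, adjusted p = 0.288) in BAT-Mcu-KO animals.

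The decarboxylase subunits of the dehydrogenase complex come first. Bckdha, the alpha subunit that carries the regulatory phosphate, was at 4884 to 6198 normalized counts in control mice at RT, with a median of 5508. At 4°C the control mice had 4654, 5034, 5499.7, 4986 and 4092. Replicates 1 and 5 lay below every RT mouse and the other 3 among them. It fell by 0.20 on the log2 scale (SE 0.08, adjusted p = 0.0364). That call was lost without any of replicates 1 or 5 at 4°C or 1 or 6 at RT (adjusted p = 0.0705 to 0.143) and without the 5 libraries high in muscle markers (log2 fold change −0.14, adjusted p = 0.233). It was also lost with only the compared groups (adjusted p = 0.104) and without the variance trend (adjusted p = 0.0555), while scaling to the 75th percentile and quantile normalization gave −0.31 and −0.32 (adjusted p = 0.00249 and 0.00076). In BAT-Mcu-KO animals its range was 5040 to 6409 (median 5531) at RT and 4891 to 5453 (median 5100) at 4°C, and the log2 fold change was −0.14 (95% interval −0.30 to 0.01, adjusted p = 0.124). It passed the test under both rescalings, at −0.20 (adjusted p = 0.0422) and −0.29 (adjusted p = 0.00144).

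Bckdhb, the beta subunit of the decarboxylase, was at 479 to 1138 normalized counts in control mice at RT, with a median of 767. At 4°C the 5 control mice had 904, 2281, 2630 (replicate 3), 2415 and 1782. Replicate 1 lay within the RT range and the other 4 were above every RT mouse. Bckdhb rose by 1.31 on the log2 scale (SE 0.35, adjusted p = 0.0032), or 2.47-fold. Without replicate 1 at 4°C the log2 fold change was 1.57 (adjusted p = 0.000612). In the BAT-Mcu-KO groups 2 mice stood apart. At RT, replicate 1 had 3145 normalized counts and the other 5 mice had 728 to 1221. At 4°C, replicate 6 had 748 and the other 5 had 1597 to 2347. The fold change over all 12 mice was 0.73 on the log2 scale (95% interval 0.05 to 1.41, adjusted p = 0.078), which did not pass the test. Without replicate 1 at RT it was 1.05 (adjusted p = 0.00444), and without replicate 6 at 4°C it was 0.97 (adjusted p = 0.0152). Without the libraries high in muscle markers, which leaves 3 BAT-Mcu-KO animals at RT, it was 0.26 (adjusted p = 0.667).

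Dbt, the core subunit that transfers the acyl group, rose in both genotypes. Control mice at RT had 1613 to 2195 normalized counts with a median of 1916, and those at 4°C had 3433, 2803, 2469, 2640.2 and 3057. In BAT-Mcu-KO animals the levels were 1905 to 2263 (median 2043) at RT and 2580.3 to 3283 (median 3094) at 4°C. Every mouse at 4°C lay above every RT mouse of its genotype. The log2 fold change was 0.58 (SE 0.09, adjusted p = 6.13e-06) in control mice, and the BAT-Mcu-KO value was 0.56 (SE 0.08, adjusted p = 5.17e-06), a rise of 49.6% and 47.9%. It was called in both genotypes under every alternative, at 0.40 to 0.63.

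Bckdk, the kinase that switches the complex off, fell in both genotypes. In control mice its level was 2132 to 3013 normalized counts (median 2374) at RT, and 1798, 1776, 1884, 1469 and 1608 at 4°C. In BAT-Mcu-KO animals it was 2053 to 2914 (median 2227) at RT and 1469.9 to 2039 (median 1828) at 4°C. No mouse at 4°C reached the lowest RT mouse of its genotype, although in BAT-Mcu-KO animals the gap was narrow (2039 against 2053). Its change was −0.51 (SE 0.11, adjusted p = 0.000278) in control mice, and the BAT-Mcu-KO value was −0.40 (SE 0.10, adjusted p = 0.00215). Without the libraries high in muscle markers the second was −0.32 (adjusted p = 0.0518) and no longer called.

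Ppm1k, the phosphatase that acts against this kinase, showed no called change. Control mice had 447 to 618 normalized counts (median 549) at RT and 799, 539, 433, 559.8 and 369 at 4°C, where replicate 1 was above every RT mouse and replicates 3 and 5 were below. BAT-Mcu-KO animals had 560.0 to 733 (median 665) at RT and 546 to 875 (median 649) at 4°C. In both genotypes mice at 4°C lay above and below the RT range. The log2 fold change was −0.05 (95% interval −0.36 to 0.25, adjusted p = 0.785) in control mice and 0.01 (−0.28 to 0.29, adjusted p = 0.973) in BAT-Mcu-KO animals, and its sign was not stable across alternatives.

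**Figure D2:**
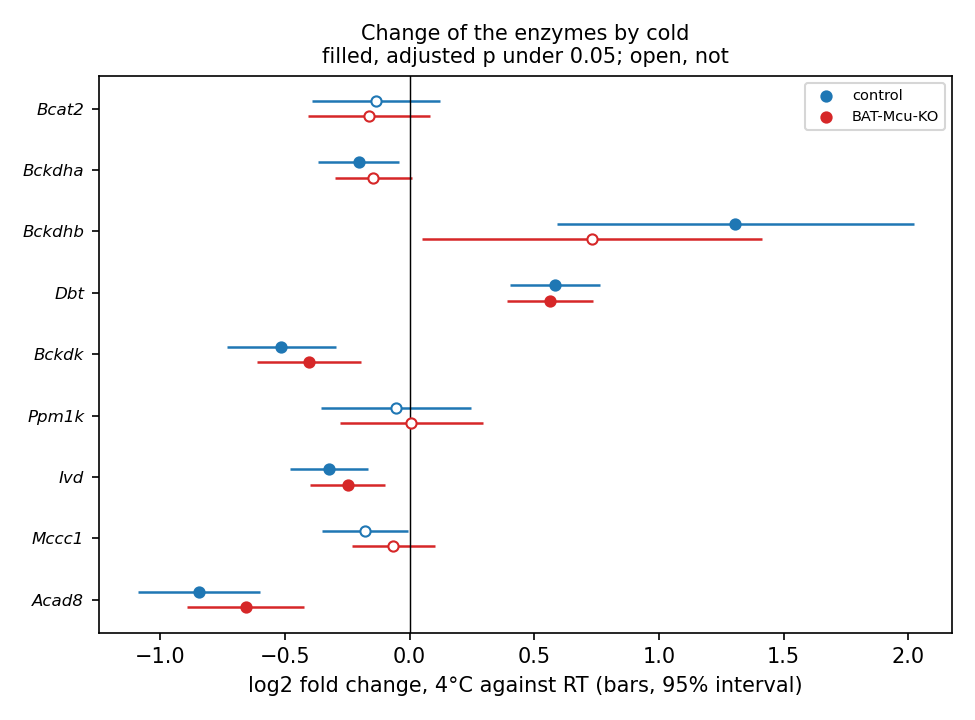
Log2 fold change at 4°C against RT (horizontal axis) of each of the 9 genes (vertical axis) in control mice and BAT-Mcu-KO animals, with 95% intervals as bars and filled points where the adjusted p was under 0.05. Dbt and Bckdhb lie to the right of 0, and Acad8, Bckdk and Ivd to the left in both genotypes.

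Of the enzymes past the complex, Acad8, the isobutyryl-CoA dehydrogenase of the valine branch, had the largest fall. Its level in control mice was 925 to 1538 normalized counts (median 1276) at RT and 823, 766, 692, 551 and 678 at 4°C. In BAT-Mcu-KO animals it was 1092 to 1352 (median 1253) at RT and 669 to 974 (median 757) at 4°C. The temperatures did not overlap in either genotype. Its fold change on the log2 scale was −0.85 (SE 0.12, adjusted p = 2.39e-06) in control mice, and the BAT-Mcu-KO value was −0.66 (SE 0.11, adjusted p = 4e-05), to 0.557 and 0.634 of the RT level. Across alternatives it stayed between −1.0 and −0.60 and was always called.

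Ivd, the isovaleryl-CoA dehydrogenase of the leucine branch, fell less. Control mice had 3307 to 3917 normalized counts (median 3600.4) at RT and 3032, 2794, 3257, 2578 and 2726 at 4°C, all below the RT mice. BAT-Mcu-KO animals had 3578 to 4352 (median 3829) at RT and 2963 to 3738 (median 3219) at 4°C, where 5 of 6 mice lay below every RT mouse and replicate 5 did not. The log2 fold change was −0.32 (SE 0.08, adjusted p = 0.00109) in control mice, and the BAT-Mcu-KO value was −0.25 (SE 0.07, adjusted p = 0.00717). Without the libraries high in muscle markers the second was −0.25 (adjusted p = 0.0503), and with quantile normalization −0.39 (adjusted p = 5.78e-05).

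Mccc1, the alpha subunit of the carboxylase that follows IVD, was at 2250.1 to 2521 normalized counts (median 2408) in control mice at RT. At 4°C the control mice had 2367, 2383, 2346, 1929.8 and 1663, so that replicates 4 and 5 were below every RT mouse and the other 3 were not. BAT-Mcu-KO animals had 2428 to 2800.2 (median 2532) at RT and 2152 to 2591 (median 2515) at 4°C, with overlap. The log2 fold change was −0.18 (95% interval −0.35 to −0.01, adjusted p = 0.0855) in control mice and −0.06 (−0.23 to 0.10, adjusted p = 0.549) in BAT-Mcu-KO animals. In control mice it passed the test under 4 alternatives, 2 of them rescalings of the libraries (−0.29 and −0.36, adjusted p = 0.00721 and 0.000227) and 2 without replicate 1 or 2 at 4°C (−0.22, adjusted p = 0.0453 and 0.0443). In BAT-Mcu-KO animals it passed with quantile normalization (−0.23, adjusted p = 0.0104).

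The balance within the complex was described by the log2 ratio of normalized counts in each mouse, which is not a ratio of levels per length. Dbt over Bckdha was −1.77 to −1.33 in control mice at RT and −1.16 to −0.42 at 4°C. In BAT-Mcu-KO animals it was −1.60 to −1.40 at RT and −0.93 to −0.67 at 4°C. It was higher in every mouse at 4°C than in any RT mouse of its genotype. Bckdhb over Bckdha had medians of −2.83 and −1.14 in control mice at RT and 4°C and of −2.77 and −1.32 in BAT-Mcu-KO animals, with 1 mouse of each group but control at RT far from the rest. Bckdk over Ppm1k had a mean of 2.17 ± 0.32 (SD, n = 6) in control mice at RT and of 1.71 ± 0.43 (n = 5) at 4°C. In BAT-Mcu-KO animals the means were 1.83 ± 0.26 (n = 6) at RT and 1.42 ± 0.36 (n = 6) at 4°C. The kinase to phosphatase ratio was lower on average at 4°C and overlapped between the temperatures in both genotypes.

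**Figure D3:**
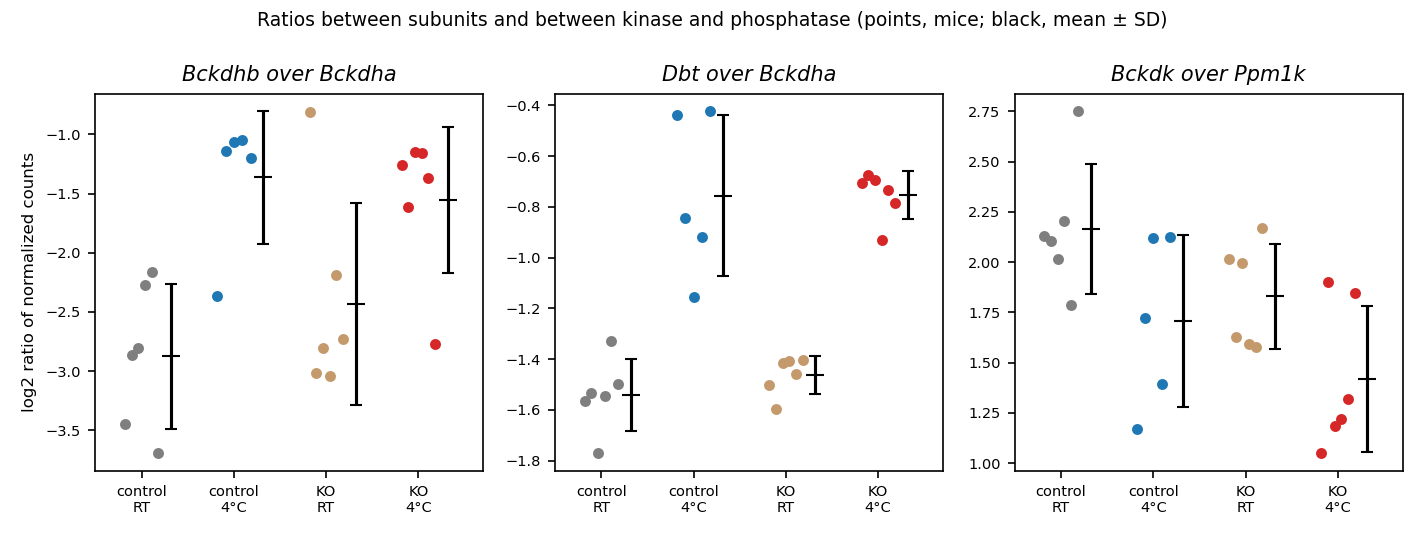
Log2 ratio of normalized counts in each mouse (vertical axes) by group (horizontal axes), with the mean and SD in black, for Bckdhb over Bckdha, Dbt over Bckdha and Bckdk over Ppm1k. Dbt over Bckdha separates the temperatures in both genotypes, and Bckdk over Ppm1k overlaps between them.

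Genotype called none of the 9 genes at RT, where 0.0478% of all genes were called (7 of 14651). Log2 differences between BAT-Mcu-KO and control mice ran from −0.06 for Bckdk to 0.47 for Bckdhb, and 7 of 9 were above 0, as were 50.2% of all genes. The smallest adjusted p was 0.94 (limma), for Ppm1k, whose log2 difference was 0.28 (95% interval −0.01 to 0.56). That gene was higher in 5 of 6 BAT-Mcu-KO animals than in any control mouse. The Bckdhb difference (95% interval −0.22 to 1.15) was 0.15 without the BAT-Mcu-KO mouse at 3145 normalized counts. For Dbt, Ivd, Mccc1, Bckdha, Bckdk and Acad8 the intervals lay within −0.27 and 0.27, which bounds a difference that these mice could have hidden. No gene of the 9 separated the genotypes at RT, as 0.218% of all genes did.

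At 4°C genotype again called none of the 9, and 0.0751% of all genes (11 of 14651). Differences ran from −0.11 for Bckdhb to 0.34 for Ppm1k and were above 0 for 8 of 9, as for 51.2% of all genes. Mccc1 (log2 difference 0.20, 95% interval 0.03 to 0.37), Ivd (0.18, 0.02 to 0.33) and Ppm1k (0.34, 0.04 to 0.64) had unadjusted p-values of 0.0261, 0.029 and 0.0293. Their adjusted p-values by limma were 0.664, 0.675 and 0.676, and 1023 of all genes had an unadjusted p under 0.05. Mccc1 was higher in 4 of 6 BAT-Mcu-KO animals than in any control mouse, Ivd in 3 and Ppm1k in 1. No gene of the 9 separated the genotypes at 4°C, as 0.683% of all genes did. For Bckdhb the interval was wide, from −0.83 to 0.61.

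No difference in the change by cold between the genotypes was called for the 9 by the interaction term of limma, which called 0 of 14651 genes (0.0%). At an unadjusted p under 0.05 it had 878 genes and none of the 9. The quasi-likelihood test of edgeR called 0 genes and DESeq2 28 on the recovered reads, again with none of the 9. The largest interaction value was that of Bckdhb (−0.58, 95% interval −1.56 to 0.41), which was −0.26 without replicate 1 of BAT-Mcu-KO at RT. For Dbt it was −0.02 (−0.27 to 0.23), for Bckdk 0.11 (−0.19 to 0.41), for Ivd 0.07 (−0.14 to 0.29) and for Acad8 0.19 (−0.15 to 0.53). A difference of these sizes could not be told from 0 with these mice.

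**Figure D4:**
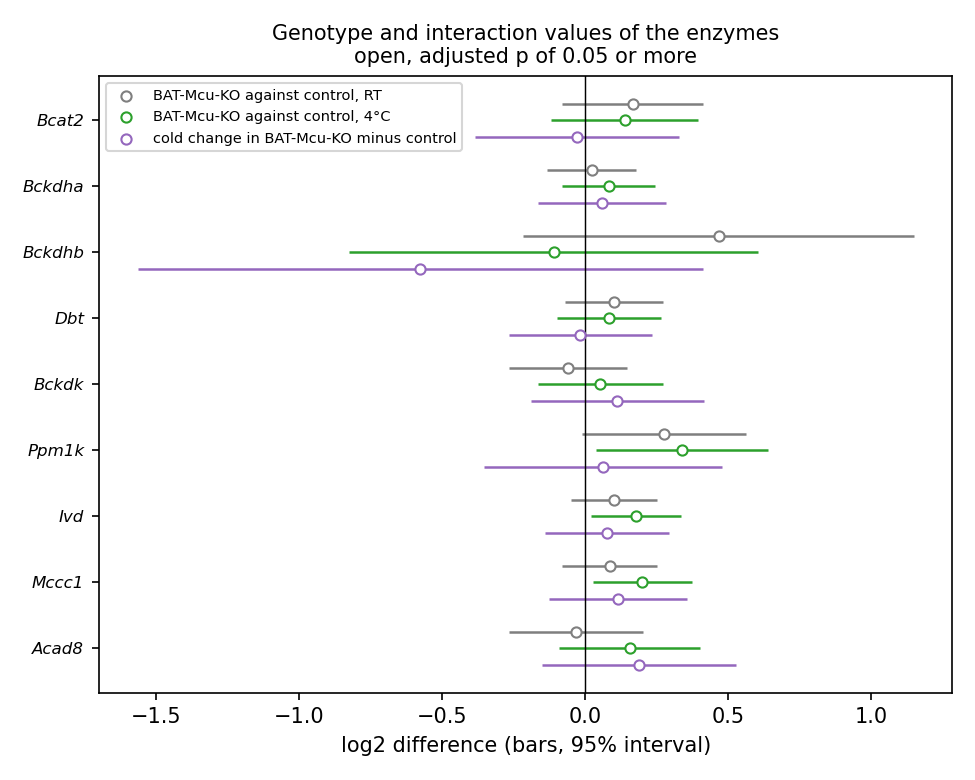
Log2 difference of BAT-Mcu-KO from control mice at RT and at 4°C, and the change by cold in BAT-Mcu-KO minus that in control (horizontal axis), for each of the 9 genes (vertical axis), with 95% intervals as bars. No value passed the adjusted threshold, and the bars of Bckdhb are the widest, from −1.56 to 0.41 for the interaction.

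Genes with a pattern most like that of Bckdhb were sought by the mean absolute difference of log2 values scaled to SD 1, over all 23 libraries. The nearest were Vps37a (0.271), Wipi2 (0.277) and Letm1 (0.279). Replicate 1 of BAT-Mcu-KO at RT, which stood apart for Bckdhb, was the highest mouse of its group for each of them. It had 490, 2149 and 6275 normalized counts. This library was among the 23 by which these genes were chosen, so its high level in them is not a separate observation. Vps37a encodes a subunit of the ESCRT-I sorting complex, Wipi2 a phosphoinositide-binding protein of autophagosome formation and Letm1 a cation exchange protein of the inner mitochondrial membrane. The other 8 genes were far less alike, Dbt being the nearest at 0.791 and place 2893 of the other genes. Hibadh, a further gene of the pathway named after its values were seen, was nearer, at 0.409 and place 63.

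The rest of the pathway was read from a list of 18 further genes, all measured. In control mice 1 rose and 9 fell by cold, where 22.3% and 23.7% of all genes did so. In BAT-Mcu-KO animals 1 rose and 6 fell, where 21.4% and 21.9% of all genes did so. The share of the list that fell was thus above that of all genes in both genotypes, a difference that was not tested. The 6 that fell in BAT-Mcu-KO animals were all among the 9 that fell in control mice. The list's median log2 fold change was −0.19 in control mice and −0.12 in BAT-Mcu-KO animals, against −0.02 for all genes. Without the libraries high in muscle markers, 0 genes rose in either genotype and 4 fell in BAT-Mcu-KO animals.

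Of the leucine branch, Mccc2 and Auh fell in both genotypes. Mccc2, the partner subunit of MCCC1, had a log2 fold change of −0.38 (adjusted p = 0.00263) in control mice and −0.25 (adjusted p = 0.0358) in BAT-Mcu-KO animals. The second call was lost without any of replicates 1, 2, 5 or 6 at RT or 3, 4 or 6 at 4°C (log2 fold change −0.25 to −0.22, adjusted p = 0.05 to 0.0843), without the libraries high in muscle markers (−0.25, adjusted p = 0.118) and without the variance trend (adjusted p = 0.0566). Quantile normalization gave −0.43 (adjusted p = 0.000167). Auh, the hydratase of the next step, stood at 1349 to 1763 normalized counts at RT and 1028 to 1256 at 4°C in control mice, a log2 fold change of −0.38 (adjusted p = 0.000629), and at −0.41 (adjusted p = 0.000194) in BAT-Mcu-KO animals. Ivd moved the same way, and Mccc1 was called in neither genotype.

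On the valine branch Hibch, the hydrolase of hydroxyisobutyryl-CoA, fell from 3257 to 4033 normalized counts at RT to 2034 to 2793 at 4°C in control mice, by 0.61 on the log2 scale (adjusted p = 1.17e-06). In BAT-Mcu-KO animals it fell by 0.43 (adjusted p = 7.03e-05). Echs1, a hydratase shared with fatty acid oxidation, had a log2 fold change of −0.34 (adjusted p = 0.00138) in control mice and −0.22 (adjusted p = 0.0266) in BAT-Mcu-KO animals. The second was not called without replicate 6 at RT or 4 or 6 at 4°C (adjusted p = 0.0511 to 0.0617) or without the libraries high in muscle markers (adjusted p = 0.183). Aldh6a1, the last enzyme of the branch, was called in neither genotype. Hibadh, the dehydrogenase that follows Hibch, went the other way and is named after its values were seen. It rose by 0.59 in control mice (SE 0.17, adjusted p = 0.00655, and 0.51 with adjusted p = 0.052 without the libraries high in muscle markers) and had a log2 fold change of 0.11 (95% interval −0.23 to 0.45, adjusted p = 0.628) in BAT-Mcu-KO animals. Its highest RT mouse was replicate 1 of BAT-Mcu-KO, at 5627 normalized counts, and its lowest mice at 4°C were replicate 1 of control (2842) and replicate 6 of BAT-Mcu-KO (2546). In these 3 mice Bckdhb also lay furthest from the rest of the group. Only replicate 1 of BAT-Mcu-KO at RT met the outlier criterion used below for Bckdhb.

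Of the 3 isoleucine genes only Hsd17b10 was called, lower in control mice (log2 fold change −0.33, adjusted p = 0.00968), and Acadsb and Acat1 were not called in either genotype. Hadh, which also serves fatty acid oxidation, was lower in both (−0.55, adjusted p = 2.06e-05, and −0.45, adjusted p = 0.000157). Past propionyl-CoA, the list holds 6 genes. Mmab, which makes the cobalamin cofactor of methylmalonyl-CoA mutase, had the largest fall on the list, −0.82 (adjusted p = 0.000131) in control mice and −0.71 (adjusted p = 0.000429) in BAT-Mcu-KO animals. The mutase itself, listed as Mut, was at −0.09 (adjusted p = 0.414) and −0.04 (adjusted p = 0.768). Mcee, the epimerase before it and named after its values were seen, rose in BAT-Mcu-KO animals by 0.40 (adjusted p = 0.00779) and was at 0.10 (adjusted p = 0.522) in control mice. The first was 0.37 (adjusted p = 0.0698) without the libraries high in muscle markers and 0.23 (adjusted p = 0.139) with quantile normalization, and not called in either. Dld, the third component of the complex, was not called (0.07 and 0.15), nor was the cytosolic transaminase Bcat1, at 4.97 to 18.4 normalized counts in control mice at RT.

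**Figure D5:**
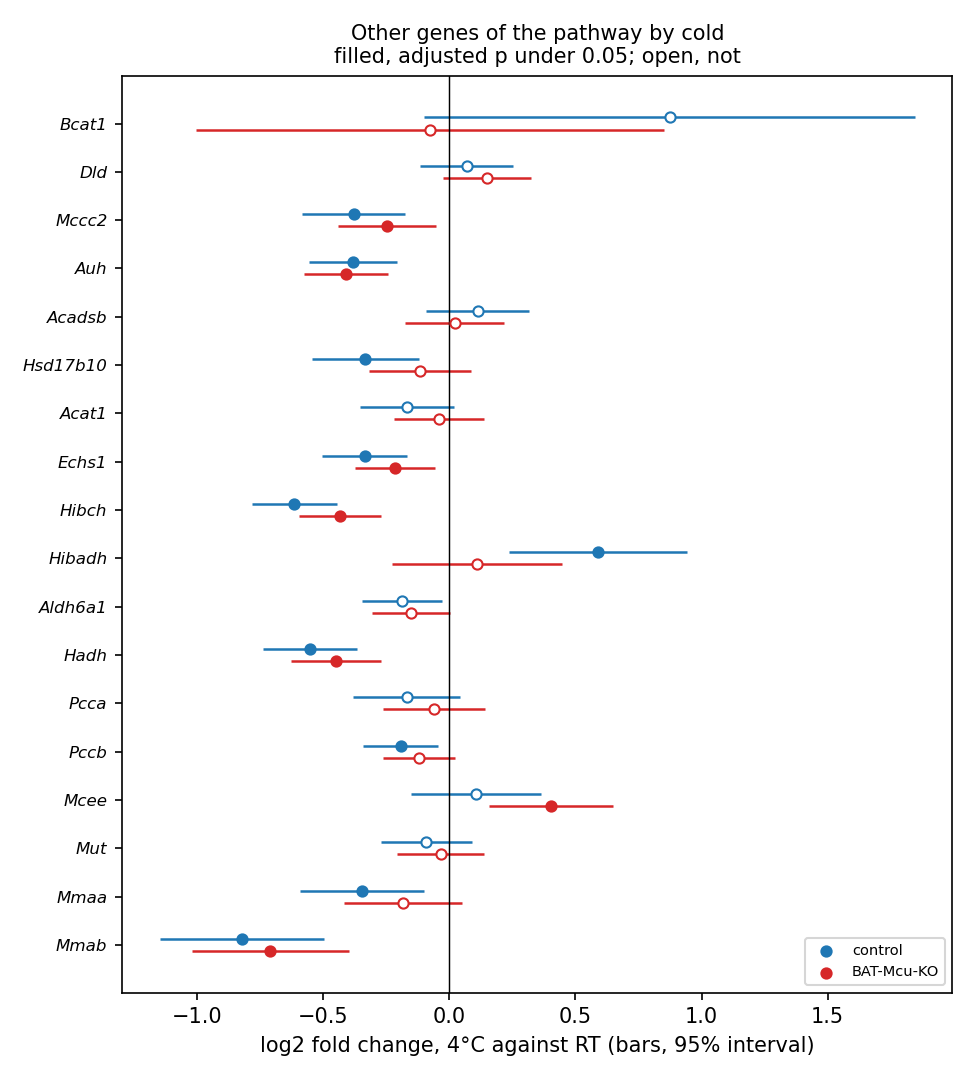
Log2 fold change at 4°C against RT (horizontal axis) of 18 other genes of the pathway (vertical axis) in control mice and BAT-Mcu-KO animals, with 95% intervals as bars and filled points where the adjusted p was under 0.05. Most filled points lie to the left of 0, Mmab furthest at −0.82 and −0.71, and Hibadh in control mice and Mcee in BAT-Mcu-KO animals to the right.

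Of 5 measured carriers of branched-chain amino acids, 3 rose and 1 fell by cold in each genotype, where 22.3% and 23.7% of all genes did so in control mice and 21.4% and 21.9% in BAT-Mcu-KO animals. In control mice each of these 4 had a larger log2 fold change in size, from 1.41 up, than any of the 9 enzymes, of which Bckdhb came nearest with 1.31. Slc7a8, a light chain of the heterodimeric exchangers, went from 19.8 to 114 normalized counts at RT to 1134 to 4007 at 4°C in control mice, a log2 fold change of 5.24 (adjusted p = 3.22e-10), and 4.45 (adjusted p = 2.45e-09) in BAT-Mcu-KO animals. Its heavy chain partner Slc3a2 rose by 3.13 and 2.93 and the facilitator Slc43a2 by 1.66 and 1.90. The related facilitator Slc43a1 fell (−1.41, adjusted p = 0.000134, and −1.45, adjusted p = 5.85e-05). Slc25a44, which carries branched-chain amino acids into mitochondria, was not called, at −0.11 (95% interval −0.29 to 0.08) in control mice and −0.17 (−0.35 to 0.002) in BAT-Mcu-KO animals. Slc7a5 is not analysed here.

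The pyruvate dehydrogenase complex is built and regulated in the same manner, and its 11 genes were all measured. Cold raised 2 and lowered 3 in control mice and raised 3 and lowered 2 in BAT-Mcu-KO animals. These 5 of 11 are near the 46.0% and 43.3% of all genes called. Among its kinases, relatives of BCKDK, Pdk4 rose (1.32, adjusted p = 1.63e-08, and 1.03, adjusted p = 4.21e-07) while Pdk2 fell (−0.67, adjusted p = 1.79e-06, and −0.67, adjusted p = 8.14e-07). Pdk1 fell as well (−0.54, adjusted p = 0.0262, and −0.68, adjusted p = 0.00428), in control mice not past the test without replicate 2, 3 or 4 at RT or 4 or 5 at 4°C (adjusted p = 0.0502 to 0.111) or without the libraries high in muscle markers (−0.46, adjusted p = 0.107). Its phosphatase Pdp2 rose (0.90, adjusted p = 2.35e-06, and 1.10, adjusted p = 6.22e-08). Dlat, the core subunit that corresponds to DBT, was not called (0.03 and −0.20).

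Of 8 regulators with reported links to the pathway, 4 rose (Ppargc1a, Atf4, Klf15 and Pparg) and 3 fell (Srebf1, Ppara and Mlxipl) in each genotype, and Esrra was not called. Of all genes 46.0% were called in control mice and 43.3% in BAT-Mcu-KO animals. Klf15, a transcription factor of amino acid breakdown genes in other tissues, went from 226 to 499 normalized counts at RT to 961 to 1448 at 4°C in control mice (log2 fold change 1.71, adjusted p = 8.66e-09), and rose by 1.57 (adjusted p = 1.86e-08) in BAT-Mcu-KO animals. The coactivator Ppargc1a rose by 5.10 and 4.33 and Atf4, the factor of the amino acid response, by 2.30 and 1.88. Srebf1, a driver of lipid synthesis, fell (−2.78 and −2.60), as did Ppara (−0.58 and −0.83) and Mlxipl (−0.57 and −0.53). Atf4 was the 1 gene of these lists called by genotype, at 4°C (log2 difference −0.66, adjusted p = 0.0151), and it was not called there without the libraries high in muscle markers (−0.63, adjusted p = 0.3) or with only the compared groups (−0.66, adjusted p = 0.243). Ppargc1a was not called there (−0.85, adjusted p = 0.284 by limma). Both were lower in all 6 BAT-Mcu-KO animals than in any control mouse at 4°C, where 0.683% of all genes separated the genotypes. Of 6 measured genes of leucine sensing, 2 rose and 1 fell in each genotype, where 46.0% and 43.3% of all genes were called. Sesn2, a leucine sensor induced by amino acid shortage, rose (1.48 and 1.82), as did Mtor (0.60 and 0.39). Sesn1 fell (−0.74 and −0.49), and Sesn3, Lars and Rptor were not called in either genotype. Without the libraries high in muscle markers Mtor (0.29, adjusted p = 0.103) and Sesn1 (−0.19, adjusted p = 0.42) were not called in BAT-Mcu-KO animals, nor was Mtor with quantile normalization (0.21, adjusted p = 0.133).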

How the data were processed

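RNA from BAT of 23 mice was prepared as Smart-seq2 libraries and read as 25 bp pairs. Alignment by the authors was to mm10 with GENCODE M7 annotations, by STAR (version 2.4.0j per the submitters' processing notes), with uniquely mapped exonic reads counted without regard to strand by HTSeq. They kept the 14651 genes that reached 8 reads in 6 or more samples and divided the reads by DESeq2 median ratio size factors. The deposited signal is these normalized counts. A deposited table of the authors' fold changes and p-values was not used. Values were whole multiples of 1 read for 100.0% of entries (tolerance 0.01 reads), which gave back the reads and the depth of 7129271 to 21006347 per library. No per-sample column was left out (0), 0 rows named no gene, and 19 symbols had become dates. Read numbers cover counting error only, since PCR copies are not independent molecules.

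The test was limma 3.58.1 (R 4.3.3) on log2(normalized count + 1) with a variance trend, 4 group means in 1 fit of all samples, and Benjamini-Hochberg adjustment. The enzymes, gene lists and marker lists were chosen with earlier results of these data known. Named genes were the 9 enzymes, up to 6 of each list called by cold in both genotypes and of largest change in control mice, any called by genotype or interaction, and the 3 most like the enzyme of largest change. Alternatives were other pseudocounts (0.5, 10), filters (a mean of 50, 8 in every sample), quantile and 75th percentile scaling, no trend, only the compared groups, a replicate block, edgeR 4.0.16, DESeq2 1.42.0 and each mouse left out in turn. Leaving out 5 libraries high in muscle markers was added after seeing the data. Fits were tested on simulated data. Tables and figures were made with Python 3.11.15, pandas 2.3.3 and matplotlib 3.10.9. Promoters came from RefSeq (GRCm38.p6) and positions and exon lengths from GENCODE M21, a later release than that used for counting. A gene of the pathway list is not reported here.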

Additional observations from a re-analysis of the deposited data

Results flagged for a closer look

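The highest and lowest mouse of each group were compared with the nearest other mouse for the enzymes and named genes in 136 groups of 5 or 6 mice, 36 of them groups of the 9 enzymes. In 15 groups, 3 of them of the enzymes, 1 mouse lay far from the rest by Dixon's criterion at the 95% level, which chance alone meets in about 1 group in 20. Values are normalized counts, and none of these mice was left out of the fit.

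Among the enzymes, Bckdhb in BAT-Mcu-KO animals at RT was highest in replicate 1 (3145), and the nearest mouse had 1221. Mccc1 in the same group was highest in replicate 2 at 2800.2, with the nearest at 2546. Bcat2 in control mice at 4°C was lowest in replicate 5 at 769.8, with the nearest at 906.

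Among the other genes of the pathway, replicate 1 of the BAT-Mcu-KO animals at RT had 5627 for Hibadh against a nearest value of 3535, as it did for Bckdhb the highest level. Replicate 5 of that group was lowest for Mmab (392, nearest 522). Auh was lowest in replicate 4 of the BAT-Mcu-KO animals at 4°C (1050.1, nearest 1232).

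Carriers gave 5 of the 15. Slc43a1 stood out in 3 groups, in replicate 1 of the control mice at 4°C (109, nearest 62.2), in replicate 4 of the BAT-Mcu-KO animals at RT (501, nearest 255) and in replicate 1 of those at 4°C (207, nearest 103). Slc3a2 was highest in replicate 1 of the control mice at 4°C (8765, nearest 5775). Slc7a8 was highest in replicate 5 of the BAT-Mcu-KO animals at RT (493, nearest 179).

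In the pyruvate dehydrogenase list, Pdp2 was highest in replicate 1 of the control mice at 4°C (3613, nearest 2641), the library that also stood out for Slc3a2 and Slc43a1. Pdk1 was lowest in replicate 5 of the BAT-Mcu-KO animals at RT (823, nearest 1440.1). Of the leucine sensing genes, Sesn1 was highest in replicate 6 of the control mice at RT (419, nearest 297), and Mtor was lowest in replicate 5 of the BAT-Mcu-KO animals at 4°C (1931, nearest 2078).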

How the results depend on the processing

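Of 1566 values of the 9 enzymes under alternatives, 1511 kept their direction and their side of the threshold, 9 calls were lost, 9 were gained and 37 values turned sign. No value that turned sign was past the threshold. Of 1708 counts of called genes under alternatives, 37 moved by over 1.5 times. The cause of these moves was not tested. The 75th percentile scaling lowered the median of all genes by cold in control mice by 0.10 on the log2 scale, and the share of calls that were higher was 38.2% against 48.5%.

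Replicate numbers name different mice. The mean correlation of deviations of mice with the same number was −0.03 for cold in control mice, −0.10 in BAT-Mcu-KO animals, −0.04 for genotype at RT and 0.12 for genotype at 4°C, and 2 mice at most correlated best with their own number in any comparison. Blocking on the replicate number gave 7 genes called by genotype at 4°C against 11, 4 pyruvate dehydrogenase genes were higher by cold in control mice against 2, and by genotype at 4°C Bckdhb had a log2 fold change of 0.046 and Bckdk of −0.00061.

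By genotype at 4°C, DESeq2 called 23 genes, edgeR 6, limma with only the compared groups 2, without the variance trend 7, and without the 5 libraries high in muscle markers 2. Leaving out 1 mouse gave 3 to 16, with 3 without control replicate 2, 7 without control replicate 5 and 6 without BAT-Mcu-KO replicate 4. The 1 regulator called there was lost (0 called) with only the compared groups and without the libraries high in muscle markers. By genotype at RT, DESeq2 called 20 genes and limma on the compared groups alone 3, against 7. For the interaction DESeq2 called 28, against 0, and leaving out 1 mouse gave 0 to 1.

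The counts by cold without the libraries high in muscle markers were 0 other pathway genes higher in each genotype, against 1, and 1 pyruvate dehydrogenase gene and 2 leucine sensing genes lower in control mice, against 3 and 1. In BAT-Mcu-KO animals they were 1 enzyme lower against 3, and 1 leucine sensing gene higher and 0 lower, against 2 and 1. Quantile normalization gave 5 enzymes lower and 1 leucine sensing gene higher in BAT-Mcu-KO animals. It and the 75th percentile scaling gave 2 carriers lower in each genotype, against 1. A mean of 50 or more gave 4 pyruvate dehydrogenase genes higher in control mice. Leaving out 1 mouse gave 1 to 3 pyruvate dehydrogenase genes lower in control mice (1 without replicate 4 or 5 at 4°C), 1 to 2 leucine sensing genes lower in control mice (2 without replicate 5 at 4°C), 1 to 2 enzymes higher in BAT-Mcu-KO animals (2 without replicate 1 at RT or 6 at 4°C) and 1 to 2 carriers lower in them (2 without replicate 5 at RT or 2 at 4°C).

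The log2 values that turned sign were small. Under the 75th percentile scaling they were 0.029 for Bcat2 and 0.040 for Dbt in the interaction, −0.0061 for Bckdha by genotype at RT, −0.044 for Ppm1k by cold in BAT-Mcu-KO animals and −0.0041 for Mcee by cold in control mice. Quantile normalization gave −0.083 for Mcee, and −0.077 for Ppm1k and −0.038 for Hibadh by cold in BAT-Mcu-KO animals. Values without the libraries high in muscle markers were −0.041 for Bckdha, 0.020 for Dbt and −0.093 for Ppm1k in the interaction, 0.095 for Ppm1k by cold in control mice and −0.034 for Hibadh by cold in BAT-Mcu-KO animals. Leaving out 1 mouse gave ranges in the interaction of −0.095 to 0.051 for Bcat2, −0.00078 to 0.11 for Bckdha, −0.070 to 0.049 for Dbt and −0.063 to 0.22 for Ppm1k. By genotype at RT they were −0.015 to 0.056 for Bckdha, −0.12 to 0.0020 for Bckdk and −0.12 to 0.026 for Acad8. By genotype at 4°C they were −0.37 to 0.13 for Bckdhb and −0.00015 to 0.10 for Bckdk. By cold, Ppm1k had −0.21 to 0.070 in control mice and −0.075 to 0.061 in BAT-Mcu-KO animals.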
